A study of Mus musculus with 6 samples.

Results

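Myeloid cells of the CD169 lineage were divided by the amount of Ly-6c antibody they bound, into Ly-6C-high cells with at least 150 antibody counts and Ly-6C-low cells with at most 30. The cells had to carry at least 2 UMIs (molecules counted by their barcode) of Csf1r, the receptor for colony-stimulating factor 1 on monocytes and macrophages, and none of Cd3e, Ncr1 or Cd79a, which mark T, NK and B cells. Of 18662 barcodes, 12139 passed the rules on mitochondrial RNA, barcode and hashtag, and 6934 of these were Csf1r-positive without the lymphocyte genes. Among them, 3407 were Ly-6C-high and 206 were Ly-6C-low, so 3613 cells are described here, and the 3321 cells between the limits were left aside. The classes were chosen on measured values, so the antibody difference itself and the levels of Csf1r, Cd3e, Ncr1 and Cd79a are properties of the choice and are not results.

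The cells came from the inguinal lymph nodes of 4 Cd169Cre/+.Tdtomatofl/fl mice on a C57BL/6J background, over 6 weeks of age. In all 4 mice Cre is expressed from the Siglec1 (CD169) gene, so that every cell which ever switched this gene on, and all its progeny, carries the red protein TOM whether or not it still expresses CD169. A pair of mice was unimmunized and a pair was immunized with hen egg lysozyme (HEL) and analysed 9 days later. TOM+ cells with high CD11b were sorted, each mouse was marked by 1 hashtag antibody, and the pooled cells were divided over 2 droplet captures in which mRNA and 6 DNA-tagged antibodies were counted on the same cell (CITE-seq). Values are given below in the order unimmunized 1, unimmunized 2, immunized 1 and immunized 2.

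Ly-6C is a small surface protein held in the membrane by a lipid anchor, and in the mouse its level separates classical monocytes, which leave the bone marrow with high Ly-6C and the chemokine receptor CCR2, from patrolling monocytes with little of it. Monocytes that enter tissue can lose Ly-6C as they turn into macrophages or antigen-presenting cells, and lymph node macrophages of the subcapsular and medullary sinuses are known for scavenger receptors and complement C1q. Type I interferon switches on a shared set of antiviral genes in myeloid cells, and Ly6c2 and several neighbouring Ly6 genes are themselves known to respond to interferon.

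Numbers and depth were uneven. The mice gave 259, 118, 1194 and 1836 Ly-6C-high cells and 36, 7, 94 and 69 Ly-6C-low cells, with 43948 to 26118427 UMIs per mouse and class. The low class of unimmunized mouse 2 held 7 cells in all, and 1 UMI in it is worth 22.8 CPM, the unit of every mRNA level here, in which UMIs are scaled to the same total in each library. Median UMIs per cell were 8796, 9738, 11282 and 13109.5 in the high class and 4900.5, 4952, 7737 and 10825 in the low class. Ly-6C-low cells were thus shallower in every mouse, and 143 of the 206 carried barcodes ending in 1, where the endings 1 and 2 are taken to mark the captures, although neither labels nor files state it. Barcodes ending in 1 made up 72.2%, 71.4%, 72.3% and 63.8% of low cells and 51.4%, 44.9%, 48.9% and 50.1% of high cells. Hashtags mark the mouse, so the classes were compared within it. The barcode ending was not a term of the fit, so pairing by mouse does not balance the classes over the endings. These 4 mice are the replicates. In the gene tests of the classes and of the interaction, p-values rest on a spread shared by genes of like level. They do not rest on each gene's own spread between the mice. Each SE below is the size of the log2 fold change divided by the square root of the test's F statistic. In these tests it therefore has the same limit.

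The antibody readout rests on counting 1 short DNA tag per bound antibody. It is printed here because every class limit counts copies of it.
Ly-6c antibody tag: aagtcgtgaggcatg
Counts of this tag ranged from 6 to 4367 over the 6934 selected cells, with a median of 146. The median was 338, 552.5, 344 and 300 in Ly-6C-high cells and 25, 26, 25 and 27 in Ly-6C-low cells. B cells of the same mice, taken as cells with at least 2 UMIs of Cd79a and none of Csf1r, had medians of 30, 34, 33 and 35 counts, so the low limit lay near the level bound by B cells. The summed counts of the other 5 antibodies went the opposite way, with medians of 35, 43.5, 19 and 27 in the high class and 80.5, 59, 49 and 39 in the low class. The part of staining depth in the division was not tested.

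Ly6c2 mRNA, which was not used to choose the cells, followed the antibody in every mouse. Ly6c2 (ENSMUSG00000022584, chr15:75108158-75111970, minus strand, GRCm38) was at 963, 1024, 1363 and 897 CPM in Ly-6C-high cells and at 92.9, 22.8, 22.3 and 40.6 CPM in Ly-6C-low cells. The classes did not overlap, and the difference was 26.0-fold in the fit over mice (log2 fold change 4.70, SE 0.22, adjusted p = 2.53e-99, edgeR quasi-likelihood test with Benjamini-Hochberg adjustment over 7987 genes, n = 4 mice, as for every adjusted p of this comparison below). Across 5 bins of antibody counts the level was 22.3 to 92.9 CPM over the mice at 0 to 30 counts, 12.02 to 106 at 31 to 75, 48.5 to 259 from 76 up to the high limit, 418 to 828 from that limit up to 400 and 1360 to 2076 at 400 and over. Over the mice, the ranges of the bins below 150 counts thus overlapped, and those from 150 counts stood apart from them. Within each mouse the rise began lower. From 76 counts up to the high limit the level was 205, 48.5, 254 and 259 CPM. It was 92.9, 22.8, 22.3 and 40.6 CPM at 0 to 30 counts and 55.5, 12.02, 60.5 and 106 CPM at 31 to 75. Within a mouse, Spearman's rho between antibody counts and Ly6c2 UMIs was 0.61, 0.71, 0.73 and 0.67 over 590, 179, 2302 and 3863 cells, all points sharing the capture and the depth of their barcodes.

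Detection of Ly6c2 differed in the same direction. After each cell was thinned to 3000 UMIs, which left out 15 high and 19 low cells, Ly6c2 was found in 58.2%, 61.5%, 75.9% and 74.3% of Ly-6C-high cells. It was found in 12%, 5.49% and 9.09% of Ly-6C-low cells of unimmunized mouse 1 and immunized mice 1 and 2, and in 0 of 5 cells of unimmunized mouse 2, which allows a share of up to 60%. In B cells of the same 3 mice the shares were 5.88%, 8.62% and 14.3%, with 0 of 9 cells in unimmunized mouse 2 (up to 33.3%). Without thinning, the shares were 74.5%, 82.2%, 91.3% and 94.1% in the high class, 19.4%, 14.3%, 8.51% and 26.1% in the low class and 12.7%, 6.67%, 17.9% and 14.3% in B cells, whose median depth was 3270, 3148, 5834 and 4516 UMIs. After thinning, the share in Ly-6C-low cells was below that in B cells in both immunized mice and above it in unimmunized mouse 1, and without thinning it was below that in B cells only in immunized mouse 1. Ly6c1, the neighbouring gene for the second Ly-6C protein, had 7 and 10 UMIs in the high class of the immunized mice and 0 elsewhere. The transcripts of both genes are 97.6% identical over 822 aligned bases, and 34 of 210 stretches of 91 bases near the 3′ end of Ly6c2 occur unchanged in Ly6c1, so the division of reads between them is uncertain.

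At the limits the change was gradual. Cells just inside the low limit, with 25 to 30 counts, had 41.3 CPM of Ly6c2 over all mice (121 cells), and those just outside it, with 31 to 36 counts, had 29.8 CPM (190 cells). Cells just below the high limit, from 120 counts, had 322 CPM (566 cells), and those just above it, within the same distance, had 511 CPM (466 cells). These values describe where the limits fall and were not tested.

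**Figure D1:**
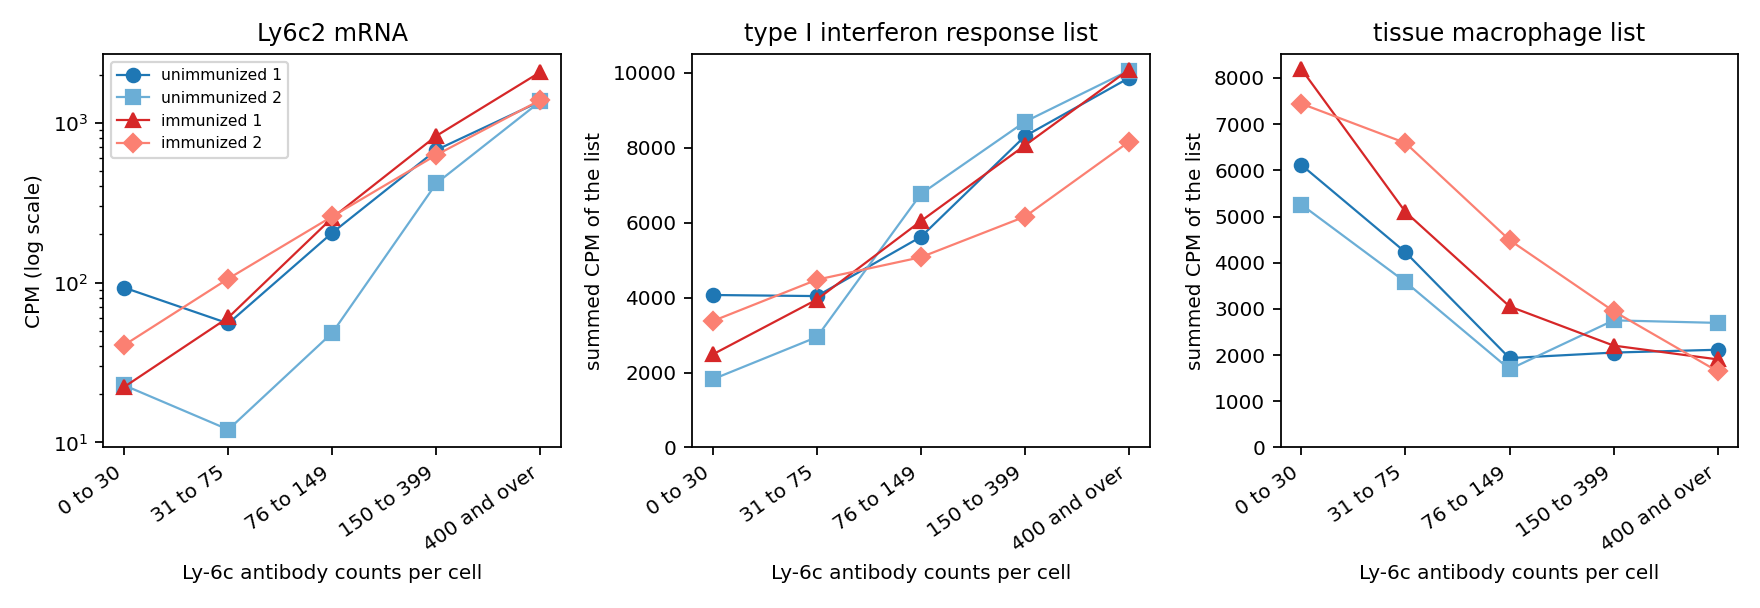
Ly6c2 mRNA (CPM, log axis), and the summed CPM of the type I interferon response and tissue macrophage lists, against bins of Ly-6c antibody counts per cell, with 1 line per mouse. Ly6c2 reaches 1360 to 2076 CPM at 400 counts and over, the interferon list is highest in that bin in all 4 mice, and the macrophage list is highest at 0 to 30 counts in all 4.

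Across the transcriptome, 819 of 7987 genes tested (10.3%) differed between the classes. Of these, 400 were higher (5.01%) and 419 were lower (5.25%) in Ly-6C-high cells. These shares are the background against which the counts of list members below have to be read. The filter on low counts can pass a gene by its level in 1 class alone. Counts and medians of tested members therefore lean towards the class in which such members are high. The median log2 fold change over all tested genes was 0.01. Of the higher genes 337 and of the lower genes 224 moved in that direction in 4 of 4 mice, and for 300 of the 819 the levels of the classes did not overlap, as for 8.63% of all genes tested. The calls depended on single mice, since 142 higher and 132 lower genes were called without immunized mouse 1, and 263 and 290 without immunized mouse 2, of which 272 and 527 were among the 819 in the same direction. They also rested on pairing, with 48 higher and 56 lower genes when the mouse was not a block. The fit gave every gene the spread of the common trend (its prior degrees of freedom were infinite), so that the p of a gene with uneven mice can be too small. A robust estimate of the spread gave 402 higher and 422 lower genes. Among the genes described below, DESeq2 did not call Ly6a, Vcan, Gbp2, C1qa, H2-Eb1, Itgal, Treml4, Itgam, Myd88 and Ms4a7, and classing by the Ly-6c share of a cell's antibody counts ended the calls of Ly6a, S100a8, Saa3, Gbp2 and Ms4a7.

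Genes of the Ly6 family rose with the antibody. The list held 12 genes, of which 4 passed the filter on low counts, and these 4, Ly6c2 among them, were higher (median log2 fold change 1.36). Ly6i was at 1020.3, 1525, 1494 and 2116 CPM in Ly-6C-high cells and at 190.4, 250.3, 398 and 1273 CPM in Ly-6C-low cells (log2 fold change 1.72, SE 0.16, adjusted p = 4.38e-23). Ly6a, the stem cell antigen Sca-1, was at 279, 706, 531 and 1177 CPM in Ly-6C-high cells and at 135, 0, 226 and 1023 CPM in Ly-6C-low cells (log2 fold change 1.01, SE 0.17, adjusted p = 1.63e-07). Ly6e, a Ly6 protein induced by interferon, was at 1683, 1679.8, 1566 and 1437 CPM in Ly-6C-high cells and at 808, 387, 926 and 1215 CPM in Ly-6C-low cells (log2 fold change 0.89, SE 0.15, adjusted p = 5.09e-07). Ly6e separated the classes without overlap, whereas the high class of unimmunized mouse 1 lay below the low class of immunized mouse 2 for Ly6i and Ly6a. The call of Ly6a was lost with the robust estimate of the spread and with DESeq2. A further 5 genes, Ly6c1, Ly6g, Ly6f, Ly6h and Ly6g2, had no UMI in the low class, and 2 members of the list had none in the high class. The low class held 1831033 UMIs in all against 44080111 in the high class. A gene at a low level in both can have none in the low class, so these zeros show no difference.

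**Figure D2:**
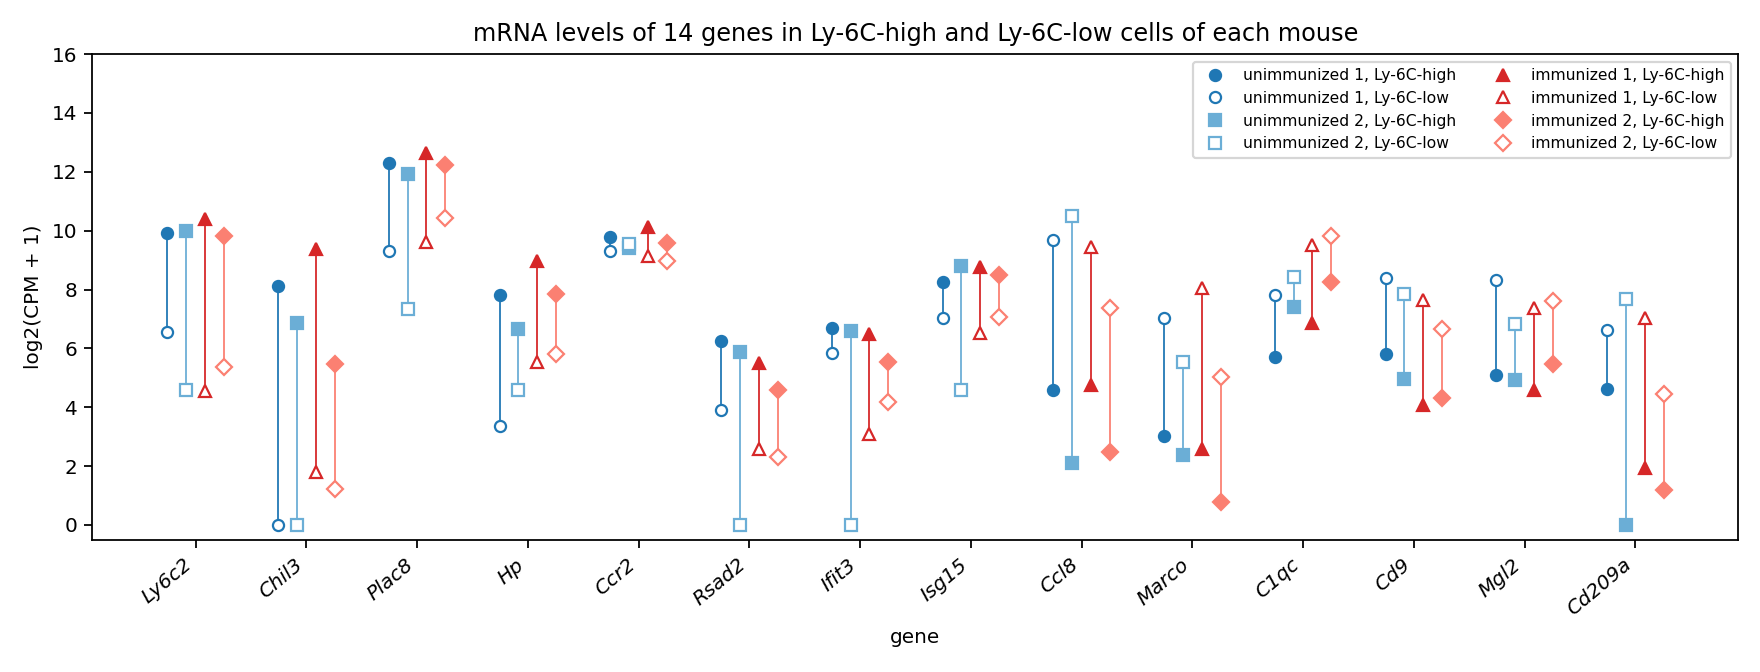
Levels of 14 genes, as log2(CPM + 1), in Ly-6C-high cells (filled symbols) and Ly-6C-low cells (open symbols) of each mouse, with a line joining the classes of 1 mouse. Ly6c2, Chil3, Plac8 and Hp are higher in the high class of all 4 mice, and Ccl8, Marco, C1qc, Cd9, Mgl2 and Cd209a are lower in all 4.

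Genes of classical monocytes were higher in Ly-6C-high cells. Of 22 genes tested in this list, which holds Ly6c2, 19 were higher and 0 were lower, with a median log2 fold change of 1.56. Summed over the list, levels were 39053, 38592, 48584 and 40470.3 CPM in the high and 24579, 18886, 24219 and 27362 CPM in the low class. Chil3 (ENSMUSG00000040809, chr3:106147554-106167564, minus strand), the chitinase-like protein Ym1 of immature monocytes, was at 276, 114, 659 and 43.6 CPM against 0, 0, 2.47 and 1.31 CPM. Pooled over the mice, only 3 of its UMIs fell in the low class against 11355 in the high class, a ratio of 157. The 95% counting interval of 53.8 to 763 treats molecules as independent and does not cover the spread between mice. High-class levels ran from 43.6 CPM in immunized mouse 2 to 659 CPM in immunized mouse 1. The paired fit over mice gave adjusted p = 5.84e-76. Plac8, a small cysteine-rich protein abundant in monocytes, was at 5055, 3866, 6340.0 and 4839 CPM in Ly-6C-high cells and at 627, 159, 779 and 1371 CPM in Ly-6C-low cells (log2 fold change 2.81, SE 0.16, adjusted p = 1.03e-61). Hp, the haemoglobin-binding protein haptoglobin, was at 226, 99.9, 495 and 229 CPM in Ly-6C-high cells and at 9.29, 22.8, 45.7 and 55.1 CPM in Ly-6C-low cells (log2 fold change 2.88, SE 0.21, adjusted p = 1.13e-40). Ms4a4c, a tetraspanning membrane protein, was at 975, 1083, 1287 and 906 CPM in Ly-6C-high cells and at 227, 159, 232 and 319.9 CPM in Ly-6C-low cells (log2 fold change 2.08, SE 0.17, adjusted p = 3.16e-32). In each of these 4 genes the lowest Ly-6C-high value lay above the highest Ly-6C-low value.

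The same list held genes of migration and matrix. Ccr2, which draws monocytes towards the chemokine CCL2, was at 880.2, 679, 1119 and 757 CPM in Ly-6C-high cells and at 627, 751, 566 and 498 CPM in Ly-6C-low cells (log2 fold change 0.59, SE 0.16, adjusted p = 0.00235). That difference was small beside those of Chil3 or Plac8, went the other way in unimmunized mouse 2, and its call was lost without immunized mouse 1 (adjusted p = 0.488) or immunized mouse 2 (adjusted p = 0.0844). Fn1, the matrix protein fibronectin, was at 67.3, 8.32, 40.4 and 15.9 CPM in Ly-6C-high cells and at 18.6, 0, 3.71 and 6.56 CPM in Ly-6C-low cells (log2 fold change 2.25, SE 0.37, adjusted p = 6.83e-08). It was higher in 4 of 4 mice, and the classes overlapped across mice. The proteoglycan gene Vcan had 905 UMIs in Ly-6C-high and none in Ly-6C-low cells, which makes it at least 12.5-fold higher against a floor of 3 counts over the whole low class, and the median of the list was unchanged at 1.56 with Vcan at that bound. The list's uncalled members were Cd14, the lipopolysaccharide co-receptor (log2 fold change -0.50, adjusted p = 0.108), Thbs1, the matrix protein thrombospondin (log2 fold change 0.05, adjusted p = 0.972), and Mcub, a mitochondrial calcium channel subunit (log2 fold change 0.26, adjusted p = 0.409).

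Granule protein genes that neutrophils share with monocytes also differed. S100a8, a subunit of calprotectin, was at 45.5, 3.33, 30.6 and 53.3 CPM in Ly-6C-high cells and at 9.29, 0, 2.47 and 3.93 CPM in Ly-6C-low cells (log2 fold change 3.40, SE 0.41, adjusted p = 1.07e-14). Its partner S100a9 was at 64.9, 0.832, 23.6 and 51.0 CPM in Ly-6C-high cells and at 23.2, 0, 2.47 and 1.31 CPM in Ly-6C-low cells (log2 fold change 3.12, SE 0.40, adjusted p = 3.73e-13). Csf3r, the receptor for granulocyte colony-stimulating factor, was at 102, 79.1, 101 and 93.9 CPM in Ly-6C-high cells and at 32.5, 0, 50.7 and 65.6 CPM in Ly-6C-low cells (log2 fold change 0.91, SE 0.19, adjusted p = 7.28e-05). Csf3r separated the classes and the others did not. These 3 were the only genes of a list of 15 neutrophil markers to pass the filter. The neutrophil-defining genes Camp, Ltf, Mmp9, Lcn2, Elane and Mpo had no UMI in the low class, and Ly6g had 3 UMIs in the high class of immunized mouse 1 and none elsewhere. The low class held far fewer UMIs in all, so these zeros show no difference. Summed over the list, the level was 231, 89.9, 179.6 and 221 CPM in the high and 78.9, 0, 68.0 and 79.97 CPM in the low class. S100a9 changed sign when cells were classed by the Ly-6c share of their antibody counts (log2 fold change -1.79, adjusted p = 0.0128), where S100a8 was at 0.25 (adjusted p = 0.378), and the value of S100a9 in Ly-6C-high cells in unimmunized mouse 2 rests on 1 UMI.

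Interferon-response genes were higher in Ly-6C-high cells. Of 37 genes in the type I interferon list 35 were tested, and 32 were higher and 0 lower in Ly-6C-high cells, with a median log2 fold change of 1.48 against 0.01 over all genes. The summed level was 8954, 9568, 8925 and 6865 CPM in the high and 4067, 1820.3, 2485 and 3373 CPM in the low class, higher in every mouse and without overlap. Mx1 and Mx2 were not analysed here. The 3 members past the filter that did not pass the test were Ifi44, an interferon-induced cytoplasmic protein (log2 fold change 0.92, adjusted p = 0.081), Slfn8, of the Schlafen family (log2 fold change 0.52, adjusted p = 0.128) and Bst2, which tethers budding viruses to the cell (log2 fold change 0.40, adjusted p = 0.0918).

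The named members had several roles. Rsad2, which encodes the antiviral enzyme viperin, was at 75.6, 58.3, 44.3 and 23.2 CPM in Ly-6C-high cells and at 13.9, 0, 4.94 and 3.93 CPM in Ly-6C-low cells (log2 fold change 2.83, SE 0.37, adjusted p = 9.82e-13). Ifit1, whose protein binds foreign RNA, was at 92.2, 73.3, 105 and 76.995 CPM in Ly-6C-high cells and at 32.5, 22.8, 12.4 and 31.5 CPM in Ly-6C-low cells (log2 fold change 1.95, SE 0.23, adjusted p = 1.38e-14). Ifit2, of the same gene cluster on chromosome 19, was at 75.2, 51.6, 59.9 and 38.4 CPM in Ly-6C-high cells and at 23.2, 0, 8.65 and 15.7 CPM in Ly-6C-low cells (log2 fold change 1.97, SE 0.28, adjusted p = 2.36e-10). In these 3 genes the classes did not overlap. Ifit3 was at 102, 95.7, 88.7 and 45.3 CPM in Ly-6C-high cells and at 55.7, 0, 7.42 and 17.04 CPM in Ly-6C-low cells (log2 fold change 2.02, SE 0.26, adjusted p = 2.76e-13). Its near copy Ifit3b was at 31.7, 25.8, 22.9 and 8.58 CPM in Ly-6C-high cells and at 4.64, 0, 3.71 and 0 CPM in Ly-6C-low cells (log2 fold change 3.03, SE 0.55, adjusted p = 1.59e-06), and reads may be divided between these neighbours in ways the counts cannot show. Oas3, a 2′-5′-oligoadenylate synthetase that activates RNase L, was at 98.9, 58.3, 62.2 and 32.7 CPM in Ly-6C-high cells and at 46.4, 22.8, 6.18 and 10.5 CPM in Ly-6C-low cells (log2 fold change 1.99, SE 0.28, adjusted p = 1.20e-10). In unimmunized mouse 1 the low class held 46.4 CPM of Oas3, so the classes overlapped. Isg15, a ubiquitin-like protein, was at 301.2, 443, 435 and 358 CPM in Ly-6C-high cells and at 130.0, 22.8, 91.5 and 134 CPM in Ly-6C-low cells (log2 fold change 1.78, SE 0.18, adjusted p = 1.37e-21). Ifi27l2a, an interferon-induced mitochondrial protein also in the monocyte list, was at 3339, 4172, 2916 and 1912 CPM in Ly-6C-high cells and at 1634, 637, 630.4 and 689.6 CPM in Ly-6C-low cells (log2 fold change 1.79, SE 0.16, adjusted p = 1.65e-27). For Isg15 and Ifi27l2a the lowest high library lay above the highest low library.

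No member was lower in any other setting tried. Between 18 and 34 members were higher in 25 settings, fewest without the mouse as a block, and 3 of 35 were higher with limits of 250 and 15 counts, where the low class fell to 1, 1, 5 and 7 cells. After thinning, a Ly-6C-high cell held a median of 22, 22, 22 and 18 UMIs of the list and a Ly-6C-low cell 5, 3, 6 and 8. In the antibody bins, summed levels went from 4067, 1820, 2485 and 3373 CPM at 0 to 30 counts to 9857, 10055, 10079 and 8155 CPM at 400 and over. Each step between bins was a rise in every mouse, except that unimmunized mouse 1 stood at 4038 CPM at 31 to 75 counts.

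Several of these genes carry the letters GAAANNGAAA (or TTTCNNTTTC on the other strand), the core of the element bound by interferon-activated factors, in the 250 bases before their start. The promoter stretches below are shown because they let the interferon genes be set beside the Ly6c genes. The interferon promoters were taken from the largest rises and only where they held a match, so their matches follow from the choice. Those of Ly6c2 and Ly6c1 were shown whether or not they held one. They are RefSeq sequence on GRCm38.p6, read 5′ to 3′ on the gene's strand, with the match in capitals.
Rsad2, chr12:26456538-26456597, minus strand: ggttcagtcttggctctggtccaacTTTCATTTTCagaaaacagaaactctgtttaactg
Ifit3, chr19:34583348-34583441, plus strand: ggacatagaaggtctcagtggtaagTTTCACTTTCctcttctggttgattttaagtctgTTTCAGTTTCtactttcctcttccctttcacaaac
Oas3, chr5:120777700-120777759, minus strand: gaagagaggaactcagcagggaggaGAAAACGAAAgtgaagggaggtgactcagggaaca
Ly6c2, chr15:75111972-75112071, minus strand: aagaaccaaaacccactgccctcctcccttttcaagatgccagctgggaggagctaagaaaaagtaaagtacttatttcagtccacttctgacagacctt
Ly6c1, chr15:75048838-75048937, minus strand: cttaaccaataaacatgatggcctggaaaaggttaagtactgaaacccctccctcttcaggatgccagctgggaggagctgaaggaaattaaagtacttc
The stretch shown for Ifit3 is letter for letter the one at Ifit3b (chr19:34607744-34607837). Over windows of 300 bases around the start, counting both strands, the motif was in 3.99% of 27025 promoters and in 4.39% of the 6430 tested genes with a promoter sequence. It was in 52 of 312 genes higher in Ly-6C-high cells (16.7%), in 18 of 323 lower genes (5.57%) and in 14 of the 24 higher interferon-list genes with a sequence (58.3%). None of 13 higher classical monocyte genes outside the interferon list and none of 15 lower macrophage genes held it, and the 250 bases before Ly6c2 and Ly6c1 had no match. A match of letters describes the sequence and shows no binding.

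Genes induced by interferon-gamma and inflammation were less uniform. Of 13 guanylate-binding and immunity-related GTPase genes tested, 5 were higher and 1 was lower (median log2 fold change 0.53). Gbp2, which attacks vacuoles holding pathogens, was at 116, 126, 196 and 567 CPM in Ly-6C-high cells and at 74.3, 0, 124 and 341 CPM in Ly-6C-low cells (log2 fold change 0.75, SE 0.17, adjusted p = 3.84e-04). Its call was lost with DESeq2 (adjusted p = 0.154) and by the Ly-6c share of antibody counts (log2 fold change 0.15, adjusted p = 0.63). Gbp5, which promotes inflammasome assembly, was at 62.9, 38.3, 101 and 209.7 CPM in Ly-6C-high cells and at 18.6, 0, 50.7 and 135 CPM in Ly-6C-low cells (log2 fold change 0.87, SE 0.19, adjusted p = 9.73e-05). Gbp2b went the other way and was at 3.56, 6.66, 3.93 and 20.6 CPM in Ly-6C-high cells and at 23.2, 22.8, 35.8 and 43.3 CPM in Ly-6C-low cells (log2 fold change -1.97, SE 0.29, adjusted p = 5.60e-10). Gbp2 and Gbp2b are close relatives in 1 gene cluster, so their separation rests on how reads were assigned. Of 15 tested inflammatory effector genes 8 were higher and 2 were lower.

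Among secreted factors, the classes differed in opposite directions. Cxcl10, a ligand of CXCR3 that attracts T cells, was at 210.2, 232, 428 and 551 CPM in Ly-6C-high cells and at 9.29, 0, 61.8 and 239.9 CPM in Ly-6C-low cells (log2 fold change 2.11, SE 0.19, adjusted p = 3.51e-27). Cxcl9, a second CXCR3 ligand, was at 346, 296, 857 and 1822 CPM in Ly-6C-high cells and at 144, 22.8, 393 and 1020.0 CPM in Ly-6C-low cells (log2 fold change 1.12, SE 0.17, adjusted p = 3.83e-09). Saa3, an acute phase protein, was at 83.9, 29.1, 391 and 756 CPM in Ly-6C-high cells and at 13.9, 0, 66.8 and 302.9 CPM in Ly-6C-low cells (log2 fold change 1.88, SE 0.19, adjusted p = 5.95e-20). All of these were higher in the high class of 4 of 4 mice, with wide gaps between the mice. Il1rn, the antagonist of the interleukin-1 receptor, was at 125, 159.8, 145 and 188 CPM in Ly-6C-high cells and at 83.6, 0, 56.9 and 109 CPM in Ly-6C-low cells (log2 fold change 1.02, SE 0.18, adjusted p = 5.97e-07). Il1a, the cytokine interleukin-1 alpha, was lower: it was at 5.15, 1.66, 2.04 and 1.91 CPM in Ly-6C-high cells and at 23.2, 22.8, 14.8 and 6.56 CPM in Ly-6C-low cells (log2 fold change -2.41, SE 0.58, adjusted p = 8.03e-04), and this call was lost without immunized mouse 1 (adjusted p = 0.131). Gpr84, a receptor for medium-chain fatty acids, was at 24.5, 7.49, 47.6 and 48.1 CPM in Ly-6C-high cells and at 4.64, 0, 4.94 and 15.7 CPM in Ly-6C-low cells (log2 fold change 2.24, SE 0.33, adjusted p = 4.70e-10). The chemokine gene Ccl8 (ENSMUSG00000009185, chr11:82115185-82116799, plus strand), whose product attracts monocytes and lymphocytes, was at 23.0, 3.33, 25.9 and 4.59 CPM in Ly-6C-high cells and at 817, 1456, 696 and 165 CPM in Ly-6C-low cells (log2 fold change -5.28, SE 0.17, adjusted p = 4.45e-210). Ccl8 was thus 38.9-fold lower in Ly-6C-high cells, with no overlap. Of 12 chemokine genes tested 4 were higher and 5 were lower. Under the Ly-6c share of antibody counts, Cxcl9 had a log2 fold change of -0.20 (adjusted p = 0.454) and Saa3 one of 0.16 (adjusted p = 0.654).

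Macrophage genes were almost all lower in Ly-6C-high cells. Of 22 genes tested in the tissue macrophage list 20 were lower and 0 higher, with a median log2 fold change of -1.52. Among the 20, Ms4a7 was lower in the immunized mice but not in the unimmunized mice. Summed levels were 2080.2, 2717, 2078 and 2490.3 CPM in the high and 6115, 5256, 8188 and 7442 CPM in the low class, which did not overlap. The members not past the test were Spic, a transcription factor of iron-recycling macrophages (log2 fold change -0.36, adjusted p = 0.434), and Trem2, a lipid receptor (log2 fold change 0.63, adjusted p = 0.376).

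Receptors that take up particles and dead cells were among the lower genes. Marco (ENSMUSG00000026390, chr1:120474538-120505024, minus strand), a scavenger receptor of sinus macrophages, was at 7.12, 4.16, 4.92 and 0.727 CPM in Ly-6C-high cells and at 130.0, 45.5, 263 and 31.5 CPM in Ly-6C-low cells (log2 fold change -5.30, SE 0.24, adjusted p = 1.12e-105). Timd4, which binds phosphatidylserine on dying cells, was at 32.5, 9.99, 7.17 and 1.26 CPM in Ly-6C-high cells and at 344, 296, 63.0 and 14.4 CPM in Ly-6C-low cells (log2 fold change -3.47, SE 0.22, adjusted p = 7.00e-52). Mrc1, the mannose receptor CD206, was at 12.7, 9.99, 6.11 and 5.51 CPM in Ly-6C-high cells and at 111, 0, 77.9 and 55.1 CPM in Ly-6C-low cells (log2 fold change -3.33, SE 0.24, adjusted p = 1.11e-42), although unimmunized mouse 2 had none in its 7 low cells. Marco separated the classes, whereas Timd4 and Mrc1 overlapped. The complement genes differed less. C1qa was at 146, 540.2, 251 and 603 CPM in Ly-6C-high cells and at 409, 182, 1434 and 1665 CPM in Ly-6C-low cells (log2 fold change -1.42, SE 0.16, adjusted p = 5.93e-16). C1qb was at 157, 437, 293 and 697 CPM in Ly-6C-high cells and at 594, 705, 1289 and 1817 CPM in Ly-6C-low cells (log2 fold change -1.59, SE 0.16, adjusted p = 1.58e-21). C1qc was at 51.5, 167, 114 and 305 CPM in Ly-6C-high cells and at 223, 341, 736 and 902 CPM in Ly-6C-low cells (log2 fold change -1.96, SE 0.16, adjusted p = 1.15e-30). C1qa was lower in 3 of 4 mice and C1qb and C1qc in 4 of 4, and the call of C1qa was lost with the robust spread estimate.

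Further genes were lower in Ly-6C-high cells. Apoe, apolipoprotein E, was at 1067, 802, 891 and 293 CPM in Ly-6C-high cells and at 3217, 2480.2, 3010.1 and 1437 CPM in Ly-6C-low cells (log2 fold change -1.78, SE 0.15, adjusted p = 1.52e-29). Nr1h3, the sterol-sensing nuclear receptor LXR alpha, was at 86.3, 62.4, 66.0 and 46.6 CPM in Ly-6C-high cells and at 162, 319, 176 and 109 CPM in Ly-6C-low cells (log2 fold change -1.32, SE 0.16, adjusted p = 1.20e-14). Cd9, a tetraspanin, was at 55.0, 29.97, 15.9 and 18.8 CPM in Ly-6C-high cells and at 334, 228, 200.3 and 99.6 CPM in Ly-6C-low cells (log2 fold change -2.94, SE 0.16, adjusted p = 5.70e-70). Cd63, a tetraspanin of lysosomes, was at 68.5, 64.1, 37.1 and 32.0 CPM in Ly-6C-high cells and at 385, 68.3, 333 and 197 CPM in Ly-6C-low cells (log2 fold change -2.65, SE 0.15, adjusted p = 9.94e-64). In Apoe, Nr1h3 and Cd9 the classes did not overlap, and in Cd63 the low class of unimmunized mouse 2 (68.3 CPM) was no higher than the high class of unimmunized mouse 1. Il22ra2, the soluble antagonist of interleukin-22, was at 87.5, 9.99, 18.1 and 3.06 CPM in Ly-6C-high cells and at 543, 68.3, 97.7 and 59.0 CPM in Ly-6C-low cells (log2 fold change -2.94, SE 0.18, adjusted p = 5.55e-58). It was lower in 4 of 4 mice, with overlap across mice.

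Genes of dendritic cells and antigen presentation were lower in Ly-6C-high cells as well, but not as a whole. Of 19 tested dendritic cell genes 11 were lower, 2 were higher and 6 did not pass the test (median log2 fold change -1.27). Members with few UMIs in the high class, such as Flt3 and Clec9a, can pass the filter by the low class alone, so these counts lean towards lower. The higher genes were Ifi205 and Napsa, and the genes whose levels follow are all among the lower ones. Cd209a, a DC-SIGN lectin, was at 23.4, 0, 2.81 and 1.302 CPM in Ly-6C-high cells and at 97.5, 205, 129.8 and 21.0 CPM in Ly-6C-low cells (log2 fold change -4.26, SE 0.25, adjusted p = 1.56e-60). Mgl2, a lectin for galactose-type sugars on dermal dendritic cells and macrophages, was at 32.8, 29.1, 23.2 and 43.5 CPM in Ly-6C-high cells and at 320.4, 114, 163 and 194 CPM in Ly-6C-low cells (log2 fold change -2.63, SE 0.16, adjusted p = 2.09e-59). Clec10a, its close relative, was at 77.2, 39.95, 81.2 and 50.8 CPM in Ly-6C-high cells and at 199.6, 341, 236 and 105 CPM in Ly-6C-low cells (log2 fold change -1.47, SE 0.16, adjusted p = 2.48e-18). Mgl2 and Clec10a separated the classes in all mice. Flt3, the growth factor receptor of dendritic cells, was at 12.7, 9.16, 7.66 and 1.23 CPM in Ly-6C-high cells and at 46.4, 45.5, 35.8 and 6.56 CPM in Ly-6C-low cells (log2 fold change -2.17, SE 0.39, adjusted p = 1.27e-06). Clec9a, a receptor for dead cells on cross-presenting dendritic cells, was at 9.89, 4.99, 3.51 and 7.62 CPM in Ly-6C-high cells and at 32.5, 0, 17.3 and 31.5 CPM in Ly-6C-low cells (log2 fold change -2.02, SE 0.37, adjusted p = 2.21e-06). Itgax, the CD11c chain, was at 97.4, 137, 60.7 and 99.1 CPM in Ly-6C-high cells and at 162, 319, 193 and 169 CPM in Ly-6C-low cells (log2 fold change -1.11, SE 0.16, adjusted p = 6.98e-11). The summed list was at 1670.2, 1467, 1529.9 and 1209.7 CPM in the high and 1945, 1934, 2008 and 1462 CPM in the low class. The call of Cd209a was lost with the robust spread estimate.

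Most genes of class II presentation did not pass the test. Of 16 genes tested 5 were lower and 1 was higher (median log2 fold change -0.30). Summed over the list, levels were 41811, 52638, 48911 and 56266 CPM in the high and 60495, 56226, 63948 and 66413 CPM in the low class. The sum was lower in the high class of each mouse, with a small overlap across mice. At 400 antibody counts and over it was 32316, 49925, 39614 and 49895 CPM. H2-Oa, which restrains peptide loading, was at 17.8, 19.98, 15.3 and 25.2 CPM in Ly-6C-high cells and at 102, 137, 112 and 44.6 CPM in Ly-6C-low cells (log2 fold change -2.10, SE 0.20, adjusted p = 9.65e-24). H2-DMb2, a chain of the peptide-loading molecule H2-M, was at 26.5, 34.96, 20.4 and 29.02 CPM in Ly-6C-high cells and at 135, 228, 218 and 42.0 CPM in Ly-6C-low cells (log2 fold change -2.31, SE 0.18, adjusted p = 5.14e-36). Both were lower without overlap, and the call of H2-DMb2 was lost with the robust spread estimate (adjusted p = 0.25). The class II chain gene H2-Eb1 was at 6709, 9554, 7915 and 9098 CPM in Ly-6C-high cells and at 10725, 10785, 11729.9 and 12076 CPM in Ly-6C-low cells (log2 fold change -0.41, SE 0.14, adjusted p = 0.0476), a call that leaving out unimmunized mouse 1 or either immunized mouse ended (adjusted p = 0.278 to 0.63). H2-Ab1 was at 6790.3, 8757, 7982 and 9739.6 CPM and 10404, 8283, 10882 and 11265 CPM and did not pass the test (log2 fold change -0.25, SE 0.14, adjusted p = 0.335), but was lower without unimmunized mouse 2 (log2 fold change -0.43, adjusted p = 0.00428) and by the Ly-6c share of antibody counts (log2 fold change -0.40, adjusted p = 0.0101). Cd86, a costimulatory ligand for CD28, was at 31.7, 40.8, 35.9 and 59.3 CPM in Ly-6C-high cells and at 88.2, 22.8, 79.1 and 104 CPM in Ly-6C-low cells (log2 fold change -0.998, SE 0.18, adjusted p = 1.75e-06). Cd40, the receptor through which helper T cells signal, was higher and was at 112, 113, 143 and 159 CPM in Ly-6C-high cells and at 27.9, 68.3, 63.0 and 111 CPM in Ly-6C-low cells (log2 fold change 0.94, SE 0.18, adjusted p = 7.65e-06).

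**Figure D3:**
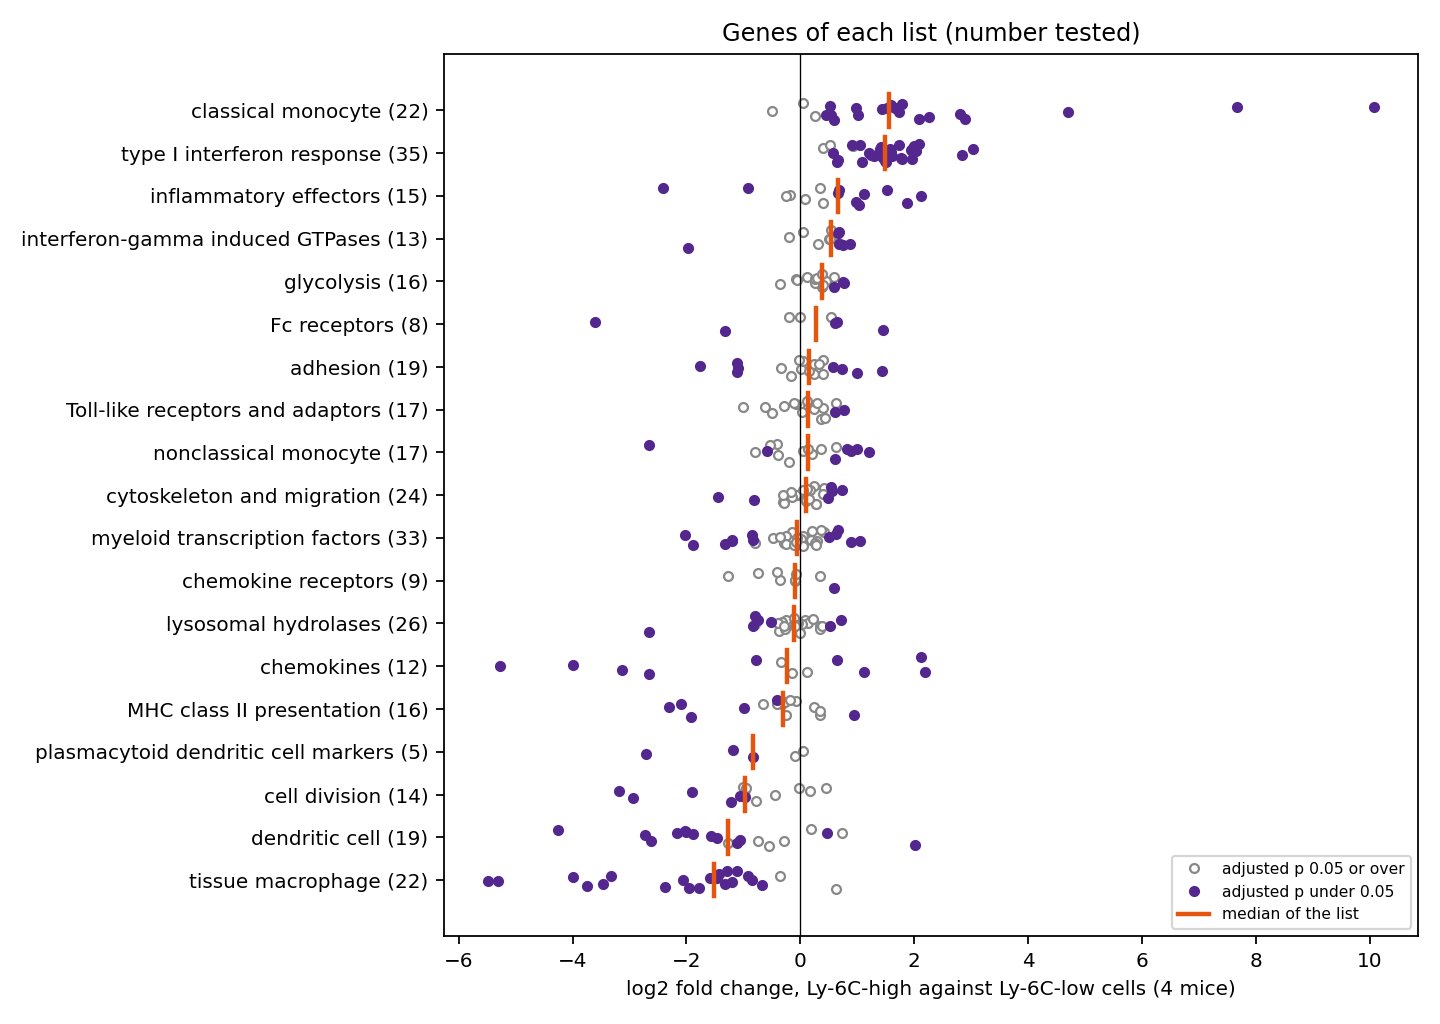
Log2 fold change of each tested gene, Ly-6C-high against Ly-6C-low cells, in the lists with at least 5 tested genes, with the number tested in brackets. Filled points passed an adjusted p of 0.05, open points did not, and orange bars are list medians, which run from -1.52 in the tissue macrophage list to 1.56 in the classical monocyte list. The rightmost point is Vcan, which had no UMI in the low class, so its fitted position is not a measured size.

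Genes of nonclassical monocytes were divided between the classes. Of 17 tested, 5 were higher and 2 were lower (median log2 fold change 0.13). The lower genes were Cd36 and Spn, and Spn was among the markers set for nonclassical monocytes. Ace, angiotensin-converting enzyme, was at 178, 47.4, 45.7 and 10.4 CPM in Ly-6C-high cells and at 51.1, 45.5, 24.7 and 3.93 CPM in Ly-6C-low cells (log2 fold change 1.20, SE 0.26, adjusted p = 1.21e-04). Itgal, the LFA-1 chain that patrolling cells use to crawl on vessels, was at 348, 117, 206 and 145 CPM in Ly-6C-high cells and at 130.0, 250.3, 72.9 and 90.5 CPM in Ly-6C-low cells (log2 fold change 0.997, SE 0.17, adjusted p = 4.76e-07). Treml4, a receptor that promotes signalling by TLR7, was at 109, 73.3, 83.8 and 52.4 CPM in Ly-6C-high cells and at 41.8, 45.5, 32.1 and 49.8 CPM in Ly-6C-low cells (log2 fold change 0.81, SE 0.21, adjusted p = 0.00148). Without immunized mouse 1 the adjusted p was 0.0725 for Itgal and 0.53 for Treml4, and without unimmunized mouse 1 it was 0.0647 for Ace. Cd36, a fatty acid transporter and scavenger receptor, was lower and was at 12.7, 2.50, 2.60 and 6.51 CPM in Ly-6C-high cells and at 88.2, 45.5, 24.7 and 23.6 CPM in Ly-6C-low cells (log2 fold change -2.65, SE 0.34, adjusted p = 8.30e-13). The defining receptor of the subset, Cx3cr1, was at 313, 153, 158 and 36.8 CPM and 199.6, 250.3, 231 and 78.7 CPM and did not pass the test (log2 fold change -0.40, SE 0.16, adjusted p = 0.0989). Classed by the Ly-6c share of antibody counts, Cx3cr1 was higher in the high class (log2 fold change 0.50, adjusted p = 0.0291), and without unimmunized mouse 1 it was lower (log2 fold change -0.72, adjusted p = 0.00251).

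Fc receptors differed by type. Fcgr1, the high-affinity receptor for IgG, was at 123, 117, 147 and 140.0 CPM in Ly-6C-high cells and at 37.1, 0, 27.2 and 89.2 CPM in Ly-6C-low cells (log2 fold change 1.45, SE 0.19, adjusted p = 6.47e-12). Fcgrt, the neonatal Fc receptor that recycles IgG and albumin, was lower and was at 28.9, 32.5, 19.7 and 34.1 CPM in Ly-6C-high cells and at 102, 68.3, 59.3 and 61.6 CPM in Ly-6C-low cells (log2 fold change -1.32, SE 0.20, adjusted p = 2.68e-09). In both genes the classes stood apart. Among 8 Fc receptor genes tested 3 were higher and 2 were lower. Of 17 Toll-like receptors and adaptors 2 were higher and none was lower, among them the adaptor Myd88, which was at 83.9, 63.3, 99.6 and 72.3 CPM in Ly-6C-high cells and at 32.5, 45.5, 54.4 and 51.1 CPM in Ly-6C-low cells (log2 fold change 0.77, SE 0.20, adjusted p = 0.0019) and lost its call without immunized mouse 1 (adjusted p = 0.199). Of 9 chemokine receptors only Ccr2 passed the test. Among all genes tested 10.3% passed, so the counts of Toll-like and chemokine receptors are near the background.

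The tested genes of cell division were lower in Ly-6C-high cells or not past the test. Of 14 tested, 6 were lower and 0 higher (median log2 fold change -0.97). Genes near the floor in the high class, such as Stmn1 and Top2a, can pass the filter by the low class alone. This count and median thus lean towards lower by the choice of tested genes and are no separate support. Summed over the whole list, levels were 1855, 1933, 2134 and 1995 CPM in the high and 1384, 1980, 2722 and 1969 CPM in the low class. The sum was thus lower in the high class of unimmunized mouse 2 and immunized mouse 1, and higher in that of unimmunized mouse 1 and immunized mouse 2. Stmn1, which takes microtubules apart, was at 6.73, 4.16, 4.43 and 4.59 CPM in Ly-6C-high cells and at 9.29, 22.8, 77.9 and 32.8 CPM in Ly-6C-low cells (log2 fold change -3.19, SE 0.32, adjusted p = 2.07e-21). Top2a, the DNA topoisomerase of dividing cells, was at 2.37, 2.50, 1.69 and 3.10 CPM in Ly-6C-high cells and at 0, 91.02, 30.9 and 7.87 CPM in Ly-6C-low cells (log2 fold change -2.93, SE 0.52, adjusted p = 1.09e-06). The low values rest on few molecules, with 2, 1, 63 and 25 UMIs of Stmn1 and 0, 4, 25 and 6 of Top2a in the low class. After thinning, 0 of 5 tested division genes were lower, beside 137 of all 4696 genes tested. Without immunized mouse 1, 1 of 10 was lower, beside 132 of 7751. In the remaining lists most genes did not pass the test. The share called in either direction was still above the 10.3% of all genes tested in each of them. Of all genes tested, 5.01% were higher and 5.25% lower. The lysosomal list had 2 higher and 5 lower of 26, glycolysis 3 higher and 0 lower of 16, myeloid transcription factors 5 and 7 of 33, adhesion 4 and 4 of 19, and cytoskeleton and migration 4 and 2 of 24.

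Markers of other cell types were checked because a low antibody class could hold them. Few of these genes passed the filter, which can pass a gene by the low class alone, so counts of lower members lean by that choice. Of 10 plasmacytoid dendritic cell genes 5 were tested and 3 were lower in Ly-6C-high cells. T cell genes gave 2 lower of 2 tested of 13, Cd4 (log2 fold change -2.85, adjusted p = 3.75e-17) and Il7r (log2 fold change -1.86, adjusted p = 1.05e-04), and Trac, the T cell receptor alpha chain, had no UMI in the low class. B cell genes gave 2 lower of 3 tested of 10, the immunoglobulin genes Ighm (log2 fold change -0.57, adjusted p = 0.00547) and Igkc (log2 fold change -0.67, adjusted p = 0.00152), with Pax5 at 0 in the low class. Summed T cell markers were at 74.4, 49.1, 22.8 and 15.2 CPM in the high and 172, 45.5, 116 and 24.9 CPM in the low class, and summed B cell markers at 328, 259, 216 and 104 and 585, 182, 320.2 and 146 CPM. None of 3 plasma cell genes and 0 of 1 endothelial or stromal genes passed the test, and none of 8 NK cell genes passed the filter. Without all barcodes that held genes of other lineages, 308 higher and 281 lower genes were called, and the part of such barcodes in the results was not tested beyond that.

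Cells with C1q or dendritic cell genes were found in both classes. After thinning, 40%, 40%, 59.3% and 62.1% of Ly-6C-low cells held a C1q transcript, against 19.9%, 32.5%, 25.7% and 37.9% of Ly-6C-high cells. A dendritic cell gene was found in 32%, 20%, 27.5% and 12.1% of low and in 11.3%, 12.8%, 7.65% and 5.96% of high cells. The genes counted for these shares were Flt3, Zbtb46, Xcr1, Clec9a, Cd209a, Ccr7 and Fscn1. Both kinds were found in 12%, 9.89% and 10.6% of low cells of the other 3 mice and in 0 of 5 cells of unimmunized mouse 2 (up to 60%). Neither kind was found in 40%, 40%, 23.1% and 36.4% of low cells. The shares for unimmunized mouse 2 come from 5 low cells. After thinning, C1qa alone was in 7.84%, 6.03% and 3.57% of B cells of unimmunized mouse 1 and immunized mice 1 and 2. It was in 10.5%, 15.6% and 27.9% of their Ly-6C-high cells. Flt3 was in 3.45% of B cells and 2.52% of Ly-6C-high cells of immunized mouse 1, and in no thinned B cell of the other mice. The part of background RNA in the shares was not tested. Without barcodes holding C1q genes, 175 genes were higher and 120 lower, and of the macrophage list 1 was higher and 2 were lower of 11 tested, which removal of these genes brings about in part by itself. Without barcodes holding dendritic cell genes, 285 were higher and 299 lower, and 5 of 12 tested dendritic cell genes were lower. Cd209a and Fscn1 were not among the genes used for that removal.

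The other 5 antibodies were compared in the same cells. Values are means of log2(counts + 1) per mouse, Ly-6C-high minus Ly-6C-low, and were compared by a two-sided exact sign-flip test over 4 mice, whose smallest p is 0.13. CD11c, a chain of an integrin of dendritic cells and some macrophages, was lower by -1.02, -0.18, -1.61 and -0.87 (mean -0.92 ± 0.59 SD, n = 4, exact p = 0.13, adjusted over 5 antibodies 0.3125). F4/80, a macrophage adhesion receptor, differed by 0.11, 0.27, 0.19 and 0.42 (mean 0.25 ± 0.13 SD, n = 4, exact p = 0.13, adjusted 0.3125). Both had 1 direction in 4 of 4 mice. CD169, the lectin whose gene drives the reporter, differed by -0.08, 0.63, -0.02 and 0.43 (mean 0.24 ± 0.35 SD, n = 4, exact p = 0.5), CD68, a lysosomal glycoprotein, by -0.29, 0.75, -0.02 and 0.15 (mean 0.15 ± 0.44 SD, n = 4, exact p = 0.75), and Ly-6g, a neutrophil protein, by 0.13, -0.13, 0.16 and 0.27 (mean 0.11 ± 0.17 SD, n = 4, exact p = 0.375). No antibody reached the threshold, which 4 mice cannot reach. As a share of all antibody counts other than Ly-6c, CD11c had a mean difference of -0.37. The other 4 were higher in 4 of 4 mice (means 0.77 for CD169, 0.52 for CD68, 0.95 for F4/80 and 0.47 for Ly-6g). Each share had exact p = 0.13 by the sign-flip test. The 5 shares have a common total that includes CD11c, so a lower CD11c share raises the sum of the others. These rises are therefore no separate result. In counts, CD169 and CD68 were higher in 2 of 4 mice, Ly-6g in 3 and F4/80 in 4.

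**Figure D4:**
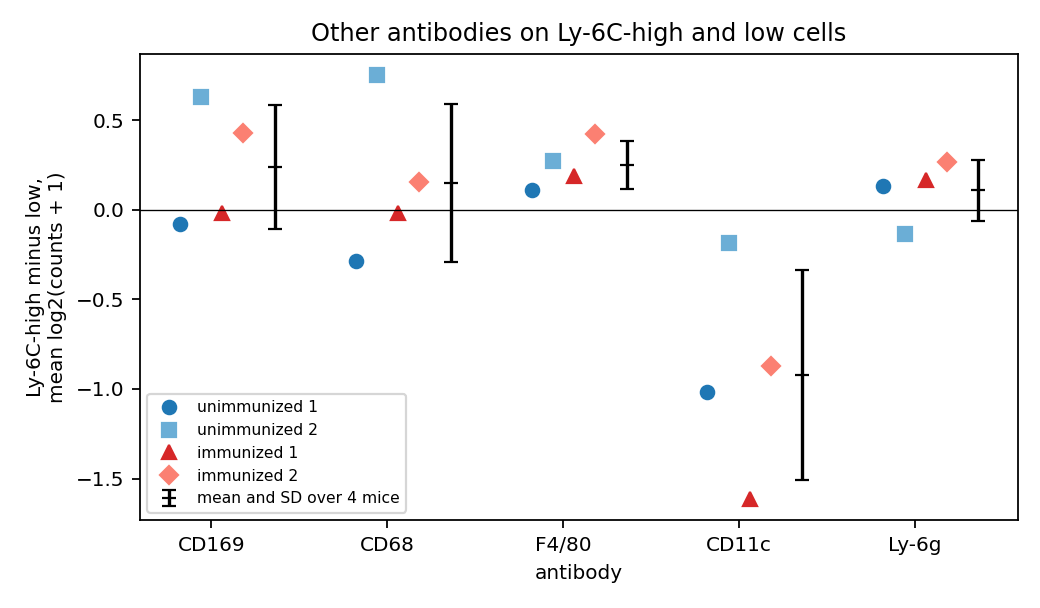
Difference between Ly-6C-high and Ly-6C-low cells in the mean log2(counts + 1) of 5 antibodies, with 1 symbol per mouse and the mean and SD over 4 mice in black. CD11c is below 0 and F4/80 above 0 in all 4 mice, and CD169 and CD68 lie on both sides of 0.

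The mRNAs of these surface proteins can be set beside the antibodies. Itgax was lower by 1.11 on the log2 scale in the comparison above. Its CD11c antibody had a lower mean in the high class of 4 of 4 mice but did not pass its threshold. In unimmunized mouse 2 the median CD11c count went the other way, with 24 in high and 13 in low cells. Itgam, the CD11b chain used in the sort, was at 161, 172, 144 and 152 CPM in Ly-6C-high cells and at 83.6, 68.3, 116 and 102 CPM in Ly-6C-low cells (log2 fold change 0.57, SE 0.17, adjusted p = 0.0108), and leaving out unimmunized mouse 1 or immunized mouse 2 ended the call (adjusted p = 0.0706 and 0.131). Siglec1, which encodes CD169, was at 23.7, 21.6, 17.8 and 30.3 CPM and 23.2, 0, 9.89 and 34.1 CPM and did not pass the test (log2 fold change 0.18, SE 0.28, adjusted p = 0.809). Adgre1, which encodes F4/80, was at 138, 113, 119 and 101 and 130.0, 182, 178 and 140.3 CPM (log2 fold change -0.42, SE 0.16, adjusted p = 0.0729), and passed it only without unimmunized mouse 1 among the mice left out (log2 fold change -0.51, adjusted p = 0.0463). Cd68 was at 245, 295, 246 and 267 and 283, 409.6, 320.2 and 291 CPM (log2 fold change -0.25, SE 0.15, adjusted p = 0.37). For F4/80 the antibody and the mRNA differed in opposite directions, neither past its threshold, and at limits of 100 and 50 counts the antibody difference was -0.05, with 2 of 4 mice higher.

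The division by Ly-6C was then compared between conditions. Ly-6C-high cells made up 43.9% (95% exact binomial interval 39.8 to 48.0), 65.9% (58.5 to 72.8), 51.9% (49.8 to 53.9) and 47.5% (45.9 to 49.1) of the selected cells of each mouse, and Ly-6C-low cells 6.10%, 3.91%, 4.08% and 1.79%. The intervals cover counting error only. The mean share of high cells was 5.21 points lower in immunized mice (-5.21 points, two-sided exact permutation p = 1, smallest possible 0.33). The unimmunized mice lay on both sides of the immunized mice, and without unimmunized mouse 2 the difference turned to 5.80 points.

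Only 6 of 7987 genes (0.0751%) had a Ly-6C difference that itself differed with immunization, and in simulated data the same fit recovered 1% of genes whose difference was changed 2-fold and 29% of those changed 4-fold. C1qa had 409 and 182 CPM in low cells of unimmunized and 1434 and 1665 CPM in those of immunized mice (difference of the log2 fold changes -1.54, SE 0.36, adjusted p = 0.0234). That call was lost with the robust spread and without immunized mouse 1, immunized mouse 2 (adjusted p = 1.0 in each) or unimmunized mouse 2 (difference -0.42, adjusted p = 0.83). Ms4a7, a tetraspanning protein of macrophages, had 69.6, 68.3, 136 and 127 CPM in low and 76.8, 89.1, 47.0 and 34.3 CPM in high cells (difference of the log2 fold changes -1.91, SE 0.41, adjusted p = 0.00531). Fabp5, a fatty acid carrier, had 176, 273, 502 and 464 CPM in low and 416, 329, 328 and 250.2 CPM in high cells (difference of the log2 fold changes -1.73, SE 0.36, adjusted p = 0.0045). For these genes the low class was higher than the high class in both immunized mice, and for Ms4a7 and Fabp5 it was lower in both unimmunized mice. H2-M2, a nonclassical MHC class I gene, had 13.9, 0, 151 and 135 CPM in low and 16.2, 2.50, 9.84 and 19.6 CPM in high cells (difference of the log2 fold changes -3.51, SE 0.73, adjusted p = 0.0045). Cd209a, given above, had 0 CPM in the high class of unimmunized mouse 2 (difference of the log2 fold changes -2.09, SE 0.50, adjusted p = 0.0437). Cd209d, a lectin of sinus macrophages, had 204, 159, 3.71 and 3.93 CPM in low and 10.3, 1.66, 6.96 and 0.191 CPM in high cells (difference of the log2 fold changes 4.43, SE 0.89, adjusted p = 0.0045). Its low class was above its high class in 3 of 4 mice, the exception being immunized mouse 1, and without that mouse the difference of the log2 fold changes was 0.42 (adjusted p = 1.0). The calls were unstable, with 0 genes by DESeq2, 4 with the robust spread, 0 at limits of 100 and 50 counts and 0 to 58 when 1 mouse was left out. The count was 58 without unimmunized mouse 1, 0 without immunized mouse 1 and 2 without either other mouse, and 342 genes had an unadjusted p under 0.05.

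**Figure D5:**
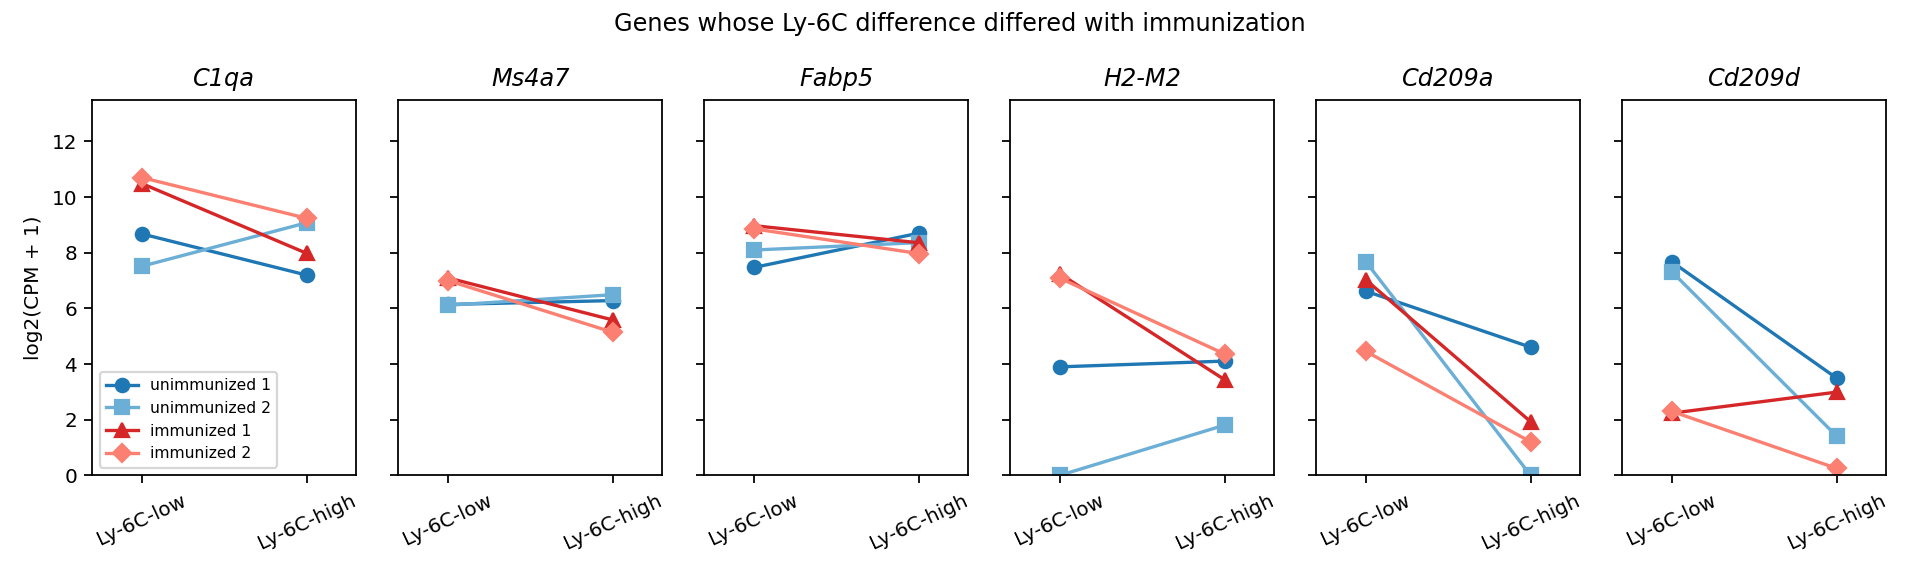
Levels, as log2(CPM + 1), of the 6 genes called for a difference in their Ly-6C contrast between conditions, in Ly-6C-low and Ly-6C-high cells, with a line per mouse. In Cd209d the unimmunized low classes stand at 204 and 159 CPM and the immunized low classes at 3.71 and 3.93 CPM, and in H2-M2 they stand at 13.9 and 0 against 151 and 135 CPM.

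Within Ly-6C-high cells, 0 of 10807 genes (0.0%) differed between immunized and unimmunized mice by edgeR's quasi-likelihood test, with 1089 at an unadjusted p under 0.05 and 61 called by DESeq2. When low counts were not filtered, 680 genes were called. In comparisons of conditions, leaving out 1 mouse leaves 1 in its condition, so that condition has no replication. The smallest p was that of C4b, complement component C4, at 8.71, 6.66, 30.4 and 36.3 CPM (log2 fold change 2.13, SE 0.23, adjusted p = 0.467). Next came Pdgfb, a growth factor, at 37.6, 35.8, 14.3 and 12.6 CPM (log2 fold change -1.40, SE 0.17, adjusted p = 0.467), Cfb, complement factor B, at 286, 306, 624 and 727 CPM (log2 fold change 1.25, SE 0.16, adjusted p = 0.467), and Aoah, an enzyme that inactivates lipopolysaccharide, at 27.7, 28.3, 60.9 and 77.3 CPM (log2 fold change 1.36, SE 0.20, adjusted p = 0.467). In each of these the conditions did not overlap in the high class, and none passed the adjusted threshold by edgeR with all 4 mice. All 4 genes passed it by DESeq2 (adjusted p = 3.41e-06 to 0.00454). They were picked for their small p in the same libraries, so these calls are no separate support. Without immunized mouse 1 and without immunized mouse 2, log2 fold changes were 2.25 and 1.98 for C4b and -1.49 and -1.32 for Pdgfb. They were 1.35 and 1.12 for Cfb and 1.53 and 1.17 for Aoah. Within Ly-6C-low cells, 5 of 5576 genes (0.0897%) were called, with 469 at an unadjusted p under 0.05 and 6 called by DESeq2. Besides Cd209d (log2 fold change -5.57, SE 0.49, adjusted p = 4.62e-05), H2-M2 (log2 fold change 3.58, SE 0.58, adjusted p = 0.0247) and C1qa (log2 fold change 2.20, SE 0.32, adjusted p = 0.0139), they were C1qc, higher in immunized mice (log2 fold change 1.66, SE 0.29, adjusted p = 0.0379), and Timd4, lower in immunized mice (log2 fold change -3.06, SE 0.47, adjusted p = 0.0197). Without unimmunized mouse 1, unimmunized mouse 2, immunized mouse 1 or immunized mouse 2 the count was 28, 34, 119 or 12. No gene was called at limits of 100 and 50 counts, where the low class held 28 to 425 cells per mouse.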

How the data were processed

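mRNA, 6 antibody tags and 4 hashtags were counted in droplets from 2 captures. The authors deposited raw counts in each matrix, as whole UMIs per gene and barcode made with Cell Ranger (version 4.0.0 and build mm10, per the submitters' processing notes) and joined over captures by cellranger aggr, and as tag counts made with CITE-seq-count. Whether aggr equalised depth is not stated. The tag tables carry no such ending as the barcodes of the matrix do (1 or 2, taken here as the capture), so the 1242 barcodes whose sequence occurs with both endings could not be matched and were dropped.

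Barcodes were kept with at most 25% mitochondrial UMIs and with 1 hashtag holding at least 80% and at least 10 of the hashtag counts. This removed barcodes with more evenly mixed hashtags, but doublets between mice in which 1 hashtag held 80% or over could stay. At a hashtag share of 95%, 165, 64, 286 and 438 of the 259, 118, 1194 and 1836 Ly-6C-high cells were kept. The part of such doublets was not tested beyond that alternative. Doublets within a mouse were addressed only by leaving out the 10% deepest barcodes as an alternative. UMIs were summed per mouse and class. Genes passing filterByExpr were tested with TMM scaling by the quasi-likelihood test of edgeR 4.0.16 (R 4.3.3) with the mouse as a block, both classes of a pair coming from the same animal, and Benjamini-Hochberg adjustment at 0.05. The interaction kept that block, and conditions were compared across mice within a class. DESeq2 1.42.0 was an alternative. Exact sign-flip and permutation tests used scipy 1.17.1 in Python 3.11.15. On simulated counts for Ly-6C-high against low cells, 7987 genes were tested, of which 100 were changed 2-fold and 100 were changed 4-fold. Of genes changed 2-fold 63% were recovered, and of those changed 4-fold 90%, and 5 unchanged genes were called. False calls in the measured counts, which can hold genes with uneven mice, were not tested.

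Genes were named as the 20 largest rises and 20 largest falls with the same direction in 4 of 4 mice, up to 6 called members of each list and its abundant uncalled members, the called genes of the immunization comparisons or the 4 of smallest p, and the genes of the antibodies and the sort. Cd14, Thbs1, Ifi44, Slfn8, Spic, Trem2 and Spn were named after their values were seen, to complete short counts. The classes, members and lists were chosen with earlier results of these data known. Alternatives were other limits, filters, depth, scaling, tools and mice left out. Results of some genes are not reported here.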

Additional observations from a re-analysis of the deposited data

Results flagged for a closer look

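Oas3 had 1 mouse far from the others. The log2 ratio of Ly-6C-high to Ly-6C-low cells within a mouse, with 20 CPM added to each level, was 0.84, 0.87 and 0.79 in unimmunized mice 1 and 2 and immunized mouse 2 and 1.65 in immunized mouse 1. This was 1 of 45 sets of 4 mice examined, where chance alone marks about 1 in 20.

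In 6 genes the Ly-6C difference itself differed between immunized and unimmunized mice by the interaction test. The difference of the log2 fold changes was 4.43 for Cd209d, -1.73 for Fabp5, -3.51 for H2-M2, -1.91 for Ms4a7, -1.54 for C1qa and -2.09 for Cd209a. None of the 6 was called by DESeq2 or at limits of 100 and 50 antibody counts.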

How the results depend on the processing

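Of the 400 higher and 419 lower genes, counts moved by over 1.5 times to 164 and 162 with at least 4 UMIs of Csf1r, 187 and 236 by DESeq2, 652 and 666 at limits of 100 and 50 counts, 12 and 16 at 250 and 15, 242 and 243 in barcodes ending in 1, 79 and 98 in those ending in 2, 205 and 213 at a hashtag share of 95%, 1116 and 1169 between the top and bottom 25% of the Ly-6c share of antibody counts, 139 and 137 after thinning, and 175 and 120 without barcodes holding C1q genes. Without a filter they were 561 and 381. The mouse pairs both classes, and without this replicate block they were 48 and 56. With 1 mouse left out they ran from 142 to 428 and from 132 to 453. Of alternatives chosen after seeing the data, 150 counts against the cells between the limits gave 646 higher genes, and leaving out unimmunized mouse 2 with thinning gave 192 and 231. Of the 819 genes, 809 of 819 tested and 698 of 699 tested kept their direction in these 2 alternatives. The cause was not tested in any of these cases, beyond fewer cells or genes entering.

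The following log2 fold changes turned. H2-Ab1 was at 0.10 with 1 UMI of Csf1r and at 0.018 without barcodes holding dendritic cell genes. At 250 and 15 counts H2-Eb1 was at 1.302, H2-Oa at 0.14, H2-Ab1 at 1.13, Siglec1 at -1.28, Adgre1 at 0.080, Cd68 at 0.36 and Fabp5 at 0.64. S100a9 was at -0.069 in barcodes ending in 2 and, by the Ly-6c share, at -1.79, with Cxcl9 at -0.20, Cx3cr1 at 0.50 and Cd68 at 0.072. Without barcodes holding C1q genes Siglec1 was at -0.33, Adgre1 at 0.24, Cd68 at 0.17 and Ms4a7 at 2.26. Siglec1 was at -0.17 without barcodes holding dendritic cell genes, at -0.061 without immunized mouse 1 and at -0.087 without unimmunized mouse 2 with thinning. Fabp5 was at 0.067 without immunized mouse 1 and ran from -0.56 to 0.16 with 1 mouse left out.

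For the interaction, 0 genes were called by DESeq2 and 0 at limits of 100 and 50, and 0 to 58 with 1 mouse left out. There Cd209a turned to 0.63 by DESeq2 and ran from -2.86 to 8.18 with 1 mouse left out, highest without unimmunized mouse 1, and H2-M2 turned to 0.80 at 100 and 50. Between conditions, Ly-6C-high cells gave 61 genes by DESeq2, 680 with no filter and 0 to 626 with 1 mouse left out. Ly-6C-low cells gave 0 at 100 and 50, where H2-M2 was at -0.12, 89 with no filter and 12 to 119 with 1 mouse left out. Results at limits of 250 and 15 are not reported for the interaction and for low cells, since each unimmunized low library held 1 cell. The difference in the share of Ly-6C-high cells was 2.27 points with 1 UMI of Csf1r and -16.2 to 5.80 points with 1 mouse left out. At 100 and 50 counts the antibody differences turned to -0.15 for CD169, -0.17 for CD68 and -0.052 for F4/80. With 1 mouse left out they ran from 0.11 to 0.35 for CD169, -0.052 to 0.29 for CD68, 0.19 to 0.29 for F4/80, -1.17 to -0.69 for CD11c and 0.05 to 0.19 for Ly-6g. Depth limits the low class most, since 1 UMI of unimmunized mouse 2 is worth 22.8 CPM.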
